A study of Mus musculus with 5 samples.

Results

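The 8 genes described here encode the GATA transcription factors (Gata1 to Gata6) and their cofactors Zfpm1 and Zfpm2, also called Fog1 and Fog2. The rule names them as the gene family and its cofactors and uses no measured value, although they were proposed with earlier results of these data known. For each gene, every peak was taken whose summit lay inside the gene or within 200 kb of either end, in a peak list for the transcription factor Hand1 and in one for the transcription factor Foxf1. Such a peak is called a site of that gene. The rule gave 1 Hand1 site out of 1134 peaks and 24 Foxf1 sites out of 5703 peaks. No peak fell into the windows of 2 of these genes at once, and the 8 genes are a small part of the 21887 protein-coding genes of the gene table.

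The peaks come from chromatin immunoprecipitation followed by sequencing, in which DNA crosslinked to a protein is recovered with an antibody and read out. All libraries came from E14, a line of mouse embryonic stem cells, differentiated towards heart progenitors as embryoid bodies for 48 h and then re-aggregated for 40 h with VEGF, Activin A and BMP4, which gave the stage labelled MES. Plating for a further 32 h with VEGF, basic FGF and FGF10 gave the stage labelled CP. The Hand1 list is from 1 library of cells at MES that carry an HA tag on Hand1, knocked in at the gene. The Foxf1 list belongs to replicate 1 of 2 libraries at CP from a line with an inducible construct that overexpresses HA-tagged Foxf1, so it shows an overexpressed protein. The labels do not say if both libraries were pooled to call it, or if either line is a single clone. All these cells share the E14 background and an HA antibody made in the laboratory. Factor, stage and mode of expression differ together between the lists and cannot be told apart. With a single list for each factor, replicate error is unknown for every value and no difference was tested. The Foxf1 list is longer although its limit is stricter: the lowest −log10 q-value was 10.0, against 5.01 in the Hand1 list.

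GATA factors bind DNA through zinc fingers that recognise the letters GATA. Gata1, Gata2 and Gata3 are best known from blood and lymphoid cells, where Gata2 maintains stem and progenitor cells, Gata1 drives red cells and megakaryocytes, and Gata3 drives T cells. Gata4, Gata5 and Gata6 act in the heart and in endoderm. Zfpm1 and Zfpm2 do not work by binding DNA themselves. They attach to a zinc finger of GATA factors and bring in the repressive NuRD complex, Zfpm1 mainly in blood and Zfpm2 mainly in the heart. Hand1 is a basic helix-loop-helix factor that binds E-boxes, and Foxf1 is a forkhead factor of the lateral and splanchnic mesoderm.

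Promoters are shown first for the 4 genes that were themselves the protein-coding gene nearest to one of their Foxf1 sites, and for Adrm1, because the strongest Foxf1 site of the set lay on it. The sequences are RefSeq's, build GRCm38.p6, and run 5′ to 3′ along the gene from 250 bases before its start to 50 after. Capitals mark matches on either strand to any of the motifs searched, which are spelled out after the sequences and can overlap. Gata3 is at chr2:9878551-9878850 on the minus strand, Gata2 at chr6:88193641-88193940 on the plus strand, Gata5 at chr2:180334630-180334929 on the minus strand, Zfpm1 at chr8:122281891-122282190 on the plus strand and Adrm1 at chr2:180171338-180171637 on the plus strand.
Gata3: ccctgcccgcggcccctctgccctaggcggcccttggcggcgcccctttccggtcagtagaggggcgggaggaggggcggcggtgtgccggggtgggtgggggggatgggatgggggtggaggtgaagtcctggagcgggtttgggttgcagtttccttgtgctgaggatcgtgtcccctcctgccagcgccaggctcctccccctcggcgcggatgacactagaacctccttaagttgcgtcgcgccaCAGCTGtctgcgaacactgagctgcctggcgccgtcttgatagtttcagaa
Gata2: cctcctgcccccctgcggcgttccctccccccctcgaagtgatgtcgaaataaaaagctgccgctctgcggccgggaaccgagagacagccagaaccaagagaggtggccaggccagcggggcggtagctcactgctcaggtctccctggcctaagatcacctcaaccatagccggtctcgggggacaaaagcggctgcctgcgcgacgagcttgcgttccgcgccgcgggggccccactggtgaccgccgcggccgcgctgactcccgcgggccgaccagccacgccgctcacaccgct
Gata5: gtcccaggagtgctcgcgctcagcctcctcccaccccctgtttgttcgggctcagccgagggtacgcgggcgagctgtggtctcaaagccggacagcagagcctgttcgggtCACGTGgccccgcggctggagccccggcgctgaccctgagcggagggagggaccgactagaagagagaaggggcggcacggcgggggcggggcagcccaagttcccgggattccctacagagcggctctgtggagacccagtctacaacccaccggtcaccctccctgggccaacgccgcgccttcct
Zfpm1: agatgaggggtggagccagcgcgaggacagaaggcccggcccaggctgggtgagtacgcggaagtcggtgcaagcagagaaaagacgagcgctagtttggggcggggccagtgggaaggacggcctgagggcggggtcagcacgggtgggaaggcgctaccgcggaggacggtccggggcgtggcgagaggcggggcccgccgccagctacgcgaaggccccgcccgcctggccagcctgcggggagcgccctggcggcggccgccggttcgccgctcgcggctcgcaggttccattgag
Adrm1: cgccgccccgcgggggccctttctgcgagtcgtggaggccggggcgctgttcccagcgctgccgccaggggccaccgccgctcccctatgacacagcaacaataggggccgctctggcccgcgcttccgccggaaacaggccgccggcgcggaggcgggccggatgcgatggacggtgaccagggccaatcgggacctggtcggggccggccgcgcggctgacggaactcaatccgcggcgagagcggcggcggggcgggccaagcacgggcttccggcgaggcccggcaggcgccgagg

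These 5 promoters were rich in G and C, from 67.3% in Gata3 to 77.0% in Adrm1, where the median of 32851 RefSeq promoters of the same length was 52.7%. The E-box was searched as CANNTG. It matched at 1 place each in Gata3 and Gata5, and 72.3% of all promoters hold at least 1 match. These were the only matches in the 5 promoters. The more special E-box CATCTG, which overlaps the first motif by its letters, was in none of the 5 and in 17.2% of all. The core that forkhead factors recognise was searched only in the form TAAACA, and related forms were not searched. This form was in none of the 5 and in 13.4% of all promoters. The GATA site was searched only as AGATAA and TGATAA. Other forms were not searched, such as the TGATAG near the end of the printed Gata3 promoter. The form AGATAA, found in 11.2% of all promoters, was in none of the 5. The form TGATAA, found in 9.05% of all promoters, was likewise in none of them. The promoter table held 6 windows for 5 of the 8 genes, the others being a second start of Gata2 and the start of Gata1. No window of the 6 shared a base with a peak of either list, against 3.80% of all promoter windows for Foxf1 and 0.441% for Hand1. The Adrm1 window lay wholly inside a Foxf1 peak. The sequence under the other peaks was not analysed here.

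Foxf1 sites were spread unevenly over the family. Zfpm1 had 9, Gata5 had 7 and Gata2 had 6, which together make up 22 of the 24. Gata3 and Gata4 had 1 each, and Gata1, Gata6 and Zfpm2 had none. A Foxf1 site was thus listed for 5 of the 8 genes (62.5%), and for 65.9% of all protein-coding genes, so the count of genes was near the background. The number per gene differed more. At least 9 Foxf1 sites were found for 3.36% of all protein-coding genes, at least 7 for 7.72% and at least 6 for 11.2%. Such counts were more frequent on the chromosome of Zfpm1. Of the 1043 protein-coding genes of chromosome 8, 166 besides Zfpm1 had at least 9. The median was 1 site per gene both for the 8 genes and for all genes. A peak that is missing from a list may have been below its limit, so a count of 0 does not show that the factor was absent.

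**Figure D1:**
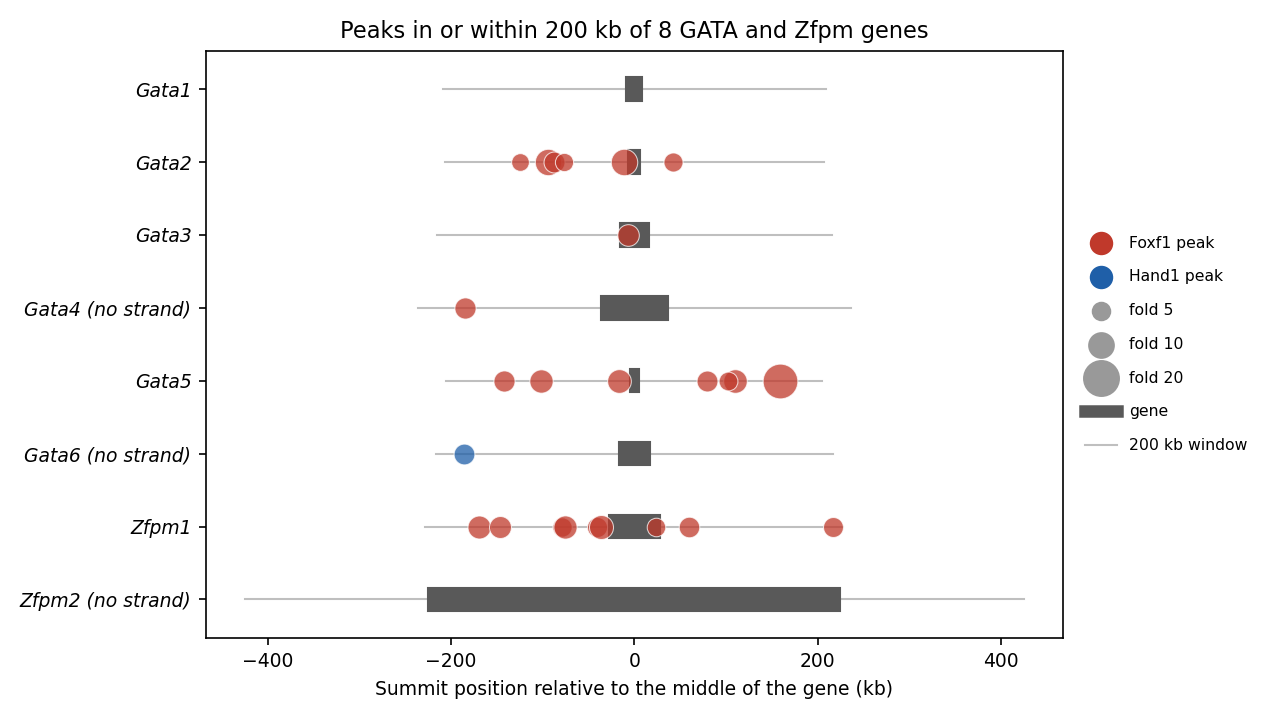
Positions of peak summits in kb from the middle of each gene, drawn 5′ to 3′ where the promoter table gives a strand and along the chromosome otherwise. Dark bars are the genes to scale, thin lines the 200 kb windows, and circle area is proportional to the authors' fold enrichment. The Foxf1 peaks (red) gather around Gata2, Gata5 and Zfpm1, and the 1 Hand1 peak (blue) lies 169 kb from Gata6.

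**Figure D2:**
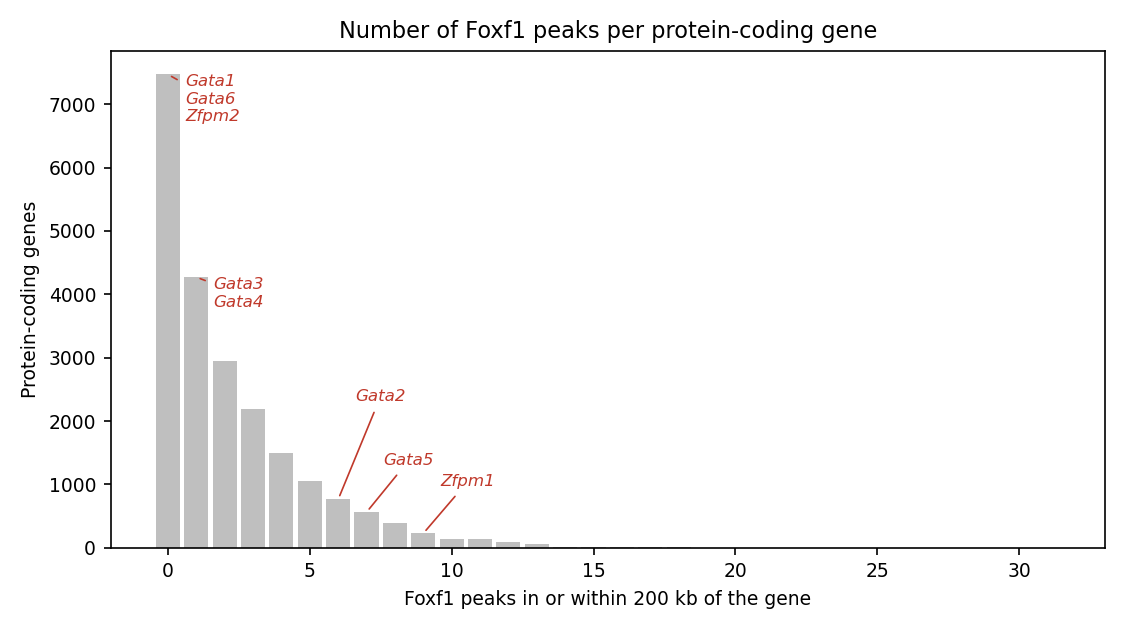
Number of protein-coding genes (vertical axis) by the number of Foxf1 peaks in the gene or within 200 kb of it (horizontal axis), with the 8 genes marked. Zfpm1, Gata5 and Gata2 lie in the thin right-hand part at 9, 7 and 6 peaks, and the other 5 genes at 0 or 1.

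Hand1 sites at these genes were few, as they were at most genes. The only one belonged to Gata6, so 1 of the 8 genes had a Hand1 site (12.5%), against 16.6% of all protein-coding genes. Within 100 kb no gene of the 8 had one, against 9.90% of all. No gene of the 8 had a site in both lists, where 14.0% of all genes did. None of the 24 Foxf1 sites overlapped a Hand1 peak, against 3.24% of all Foxf1 peaks. With so few genes and sites, these counts are all near the background and are no result about the 8 genes. The Hand1 summit nearest to a Foxf1 site of the set was 561 kb away from it. For 5 of the 8 genes the nearest Hand1 summit was more than 1000 kb away: 1155 kb for Gata5, 1322 kb for Gata3, 1790.0 kb for Gata2, 3780.5 kb for Gata1 and 4543 kb for Gata4. For Zfpm1 and Zfpm2 it was 703 kb and 779 kb away. The median over all protein-coding genes was 1040.3 kb, so these distances lie on both sides of it.

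Among the blood GATA genes, Gata2 (chr6:88193891-88207032) carried most Foxf1 sites, 5 of them upstream and 1 downstream. The site nearest to the gene was chr6:88189313-88189886, 4.23 kb upstream of the first RefSeq start, whose promoter is printed above, and 9.0 kb upstream of the second. It had the highest fold enrichment of the 6, 11.5 over the peak caller's background, which is the authors' value on a linear scale, and ranked 557 of the 5703 Foxf1 peaks. Its −log10 q-value was 43.0. About 61 fragments were inferred at the summit (95% exact Poisson interval 46.7 to 78.4, counting error only), where the median Foxf1 peak had 29. No other of the 6 had Gata2 as its nearest protein-coding gene.

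A group of 4 further sites lay 70.2 kb to 119 kb upstream of Gata2, beside Rpn1, a subunit of the oligosaccharyltransferase that adds sugars to new proteins. The strongest of them, chr6:88105902-88106983, had a fold of 11.4 (−log10 q-value 31.9) and lay 87.7 kb from Gata2 but 0.844 kb from Rpn1. The other upstream sites were weaker, with folds of 7.20 at 80.6 kb, 5.46 at 70.2 kb and 5.15 at 119 kb. The downstream site (fold 5.98) was 35.7 kb past the gene, nearer to Eefsec, which encodes an elongation factor for selenocysteine. Thus 2 of the 6 stood out, with folds of 11.4 and 11.5, and the other 4 were below the Foxf1 list's median fold of 7.62. Distal control elements of Gata2 are known between Rpn1 and the gene, and others just upstream. Whether these peaks coincide with them was not tested.

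Gata3 (chr2:9857078-9887953) had a single Foxf1 site, chr2:9879562-9879994. Its summit was inside the annotated gene, 8.18 kb from the gene's higher end, and 1.17 kb upstream of the RefSeq start whose promoter is printed above. Of all 24 Foxf1 sites this one was nearest to a listed start of its own gene. Its fold was 7.71 (−log10 q-value 17.8), close to the list's median, with about 33 fragments at the summit. The next Foxf1 peak was 355 kb from Gata3. Exons and introns were not analysed here.

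Gata1 (chrX:7959260-7976663) had no site in either list, although 17 other protein-coding genes lie in its window. The nearest Foxf1 peak, inside Wdr45, was 237 kb away with a fold of 6.89. The X chromosome as a whole had few Foxf1 peaks: 13.9% of its protein-coding genes had a site within 200 kb, against 65.9% of all. For Hand1 it was 6.21% against 16.6%. The absence at Gata1 was therefore shared by most genes of its chromosome.

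Of the heart and endoderm factors, Gata5 (chr2:180325088-180335503) had 7 Foxf1 sites and the other two nearly none. The strongest Foxf1 site of the whole set, chr2:180170695-180171849, was counted for Gata5 but lay 154 kb downstream of it, on the promoter of Adrm1, a ubiquitin receptor of the proteasome, printed above. It had a fold of 19.9 (rank 53 of 5703), a −log10 q-value of 95.8 and about 101 fragments at the summit (95% exact Poisson interval 82.3 to 123, counting error only). The next highest fold of the 24 was the 11.5 at Gata2. The peak also covered the promoter of Gm29886, which runs the other way.

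The site nearest to Gata5, and the only one of the 7 with Gata5 as its nearest protein-coding gene, was chr2:180346842-180347538. It lay 11.8 kb upstream of the gene with a fold of 9.24 (−log10 q-value 21.0). Other sites were at Lama5, a laminin chain of basement membranes, with folds of 9.12 inside that gene and 5.84 at 1.87 kb from it. A site with a fold of 7.20 was nearest to Rps21, a ribosomal protein gene. The remaining 2 were upstream of Gata5 near Slco4a1, an organic anion transporter, with folds of 8.96 and 7.34. The 8 other protein-coding genes in this window thus included the nearest neighbour of 6 of the 7 sites.

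Gata4 (chr14:63198914-63271712), which acts in the heart and in endoderm, had no Foxf1 site within 100 kb. Its single site, chr14:63050857-63051181, was 148 kb away and 2.38 kb from the defensin gene Defb42. With about 19 fragments it had the fewest of the 24, a fold of 7.40 and a −log10 q-value of 10.9, just above the list's limit. On chromosome 14, 67.8% of protein-coding genes had a Foxf1 site within 200 kb.

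Gata6 (chr18:11052510-11085636) was the only one of the 8 genes with a Hand1 site and had no Foxf1 site by the rule. The Hand1 peak, chr18:10882871-10883392, lay 169 kb from the gene, and Mib1, which encodes a ubiquitin ligase of the Notch pathway, was nearer at 64.5 kb. Its fold was 7.1 and its −log10 q-value 8.04, both below the Hand1 medians of 7.92 and 13.8. About 15 fragments were inferred at the summit (95% exact Poisson interval 8.40 to 24.7, counting error only). This site would not have met the Foxf1 list's limit of 10.0. The nearest Foxf1 peak, chr18:11351764-11352653 with a fold of 7.80, was 266 kb from Gata6, outside the window, yet no other protein-coding gene was nearer to it. No other protein-coding gene lies in the Gata6 window. On chromosome 18, 66.7% of protein-coding genes had a Foxf1 site within 200 kb and 16.0% a Hand1 site.

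Among the cofactors, Zfpm1 (chr8:122281856-122337862) had more Foxf1 sites than any of the GATA genes and Zfpm2 had none. Of the 9 sites, 6 were upstream, 1 was inside the gene and 2 were downstream. The one inside, chr8:122333151-122333539, had the lowest fold of the 9, 5.66, with a −log10 q-value of 13.8. The highest fold, 9.48 (−log10 q-value 30.9, about 50 fragments), belonged to chr8:122272927-122273668, 8.53 kb upstream of the gene and 8.82 kb upstream of the start whose promoter is printed above. A weaker site with a fold of 6.64 lay 12.2 kb upstream. Farther upstream were a pair at 47.5 kb and 51.0 kb (folds 8.85 and 6.14) and single sites at 119 kb (7.94) and 142 kb (8.70).

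All 6 upstream sites had Zfp469, a zinc finger gene whose annotated extent nearly reaches Zfpm1, as their nearest protein-coding gene, and 5 of them were inside it. The downstream sites lay 32.0 kb away (fold 6.95), nearest to the predicted gene Gm39270, and 189 kb away inside Piezo1, a mechanically gated ion channel (fold 6.54). Folds at Zfpm1 ran from 5.66 to 9.48, so by fold the locus had many sites of middling strength and none as strong as the best at Gata2 or Gata5. Fragments at these summits ran from 31 to 53, where the median Foxf1 peak had 29.

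Chromosomes 6 and 8, which hold Gata2 and Zfpm1, had more Foxf1 sites and a higher control level than the list as a whole. The control level is the background at the summit in fragments, inferred from the authors' fold and p-value. A Foxf1 site within 200 kb was found for 74.8% of protein-coding genes on chromosome 6 and 84.7% on chromosome 8, against 65.9% of all and 67.3% on chromosome 2, which holds Gata3 and Gata5. The median control level of Foxf1 peaks was 3.71 on chromosome 6, 4.14 on chromosome 8 and 2.92 over the list. For Hand1 peaks it was also higher there, 2.68 on chromosome 6 and 7.14 on chromosome 8, against 1.74 over the Hand1 list. Chromosome 15, which holds Zfpm2, had a Foxf1 share of 76.4% with a median control level of 2.68, below that of the Foxf1 list. At the sites themselves the control level ran from 2.94 to 5.60 for Gata2 and from 2.68 to 7.79 for Zfpm1. The highest, at the Zfpm1 site 51.0 kb upstream, was just under the 7.83 taken as a high level, and none of the 24 passed it. The part of chromosome and control level in these counts was not tested.

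Zfpm2 (chr15:40655042-41104592), the longest of the 8 genes, had no site in either list, although its window spanned 850 kb. The nearest Foxf1 peak, inside Oxr1, was 343 kb away with a fold of 8.93. No other protein-coding gene lies in its window, and 76.4% of protein-coding genes on chromosome 15 had a Foxf1 site within 200 kb.

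Across the set, the GATA or Zfpm gene that a Foxf1 site was counted for was its nearest protein-coding gene for 4 of the 24. These were 1 each at Gata2, Gata3, Gata5 and Zfpm1. A peak has 1 nearest gene but can lie in the 200 kb windows of several, and all protein-coding genes had a mean of 2.19 Foxf1 sites. The same share over all genes was not computed, so 4 of 24 is no result about the 8 genes. Counted by gene and at any distance, 5 of the 8, with Gata6 added, were the nearest protein-coding gene to at least 1 Foxf1 peak, against 19.7% of all protein-coding genes. Gene density around each gene also sets this count, and its part was not tested. For Hand1 none of the 8 was, against 3.30%. Within 100 kb of the gene 4 of the 8 had a Foxf1 site (all genes: 53.3%), within 50 kb also 4 (all genes: 41.7%), and within 10 kb 3 of the 8 (all genes: 22.7%). The 24 sites had a median fold of 7.37 and the whole list 7.62, with 11 of the 24 above the list's median. Their median −log10 q-value was 17.2, against 15.4. The window's edge passed between a Zfpm1 site at 189 kb with a fold of 6.54 and, outside it, a peak at 214 kb from Zfpm1 with a fold of 13.0, which lay 0.342 kb from Piezo1.

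**Figure D3:**
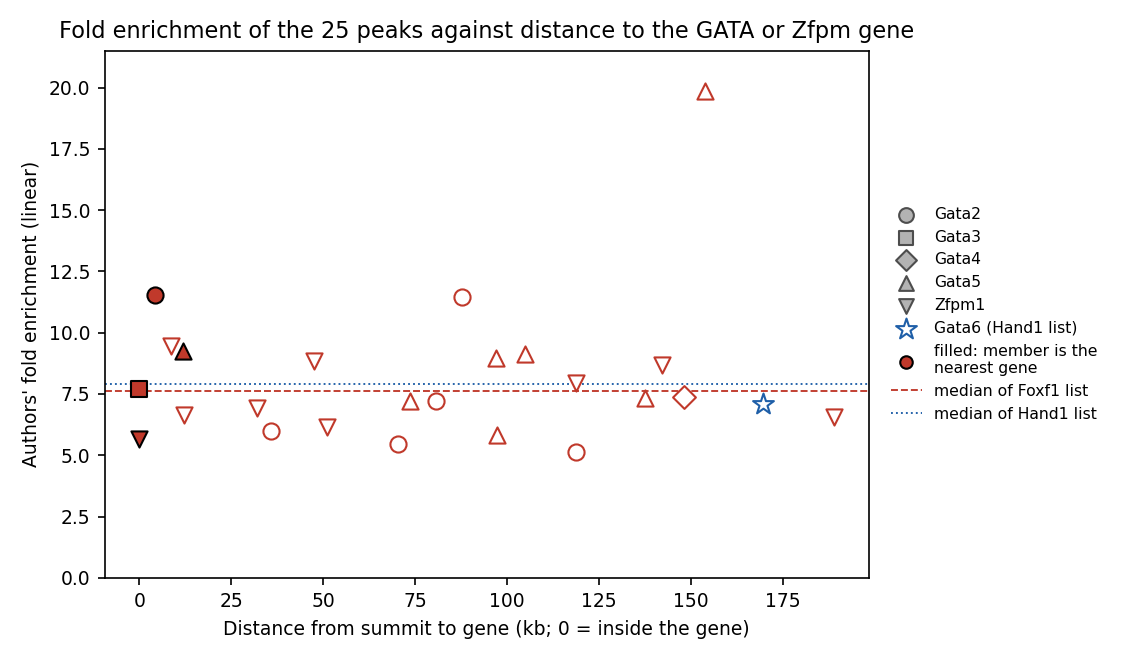
Authors' fold enrichment (vertical axis, linear) against the distance from summit to gene in kb (horizontal axis, 0 inside the gene) for the 25 sites, 1 mark each. Filled marks are the 4 sites with the GATA or Zfpm gene as nearest protein-coding gene. Dashed and dotted lines are the medians of the Foxf1 and Hand1 lists (7.62 and 7.92), and the highest mark, at 154 kb, is the site on the Adrm1 promoter.

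Genes that work with GATA factors or their cofactors, and genes for other proteins with a GATA-type zinc finger, were counted in the same way. Together they are called partner genes here. Of 41 such genes in 5 groups, 35 (85.4%) had a Foxf1 site within 200 kb, against 65.9% of all protein-coding genes, and their median number of sites was 2. A Hand1 site was found for 10 of the 41 (24.4%), against 16.6% of all, and each of the 10 also had a Foxf1 site. Most genes with a Hand1 site have both: of all protein-coding genes 3625 had a Hand1 site and 3074 a site in both lists. No Foxf1 site was listed for 6: the heart factors Tbx20 and Isl1, the endothelial and blood factor Fli1, the GATA-type repressor Trps1, the NuRD subunit Rbbp7, and the endoderm factor Sox17.

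In the cardiac group 8 of 10 genes had a Foxf1 site and 3 of 10 a Hand1 site. The 3 with both were Nkx2-5, which binds Gata4 (1 Hand1 and 5 Foxf1 sites), Tbx5 (3 and 1) and Srf (1 and 4). At Srf, a regulator of muscle and cytoskeletal genes, both factors had a summit inside the gene. In the blood and endothelial group 9 of 10 had a Foxf1 site. The most were at Klf1, a red cell factor (18 sites), Lyl1 (13) and Cbfa2t3 (7). All 3 are on chromosome 8, and 8 of the sites were counted for both Klf1 and Lyl1. Tal1, which forms a complex with Gata1 and Gata2, was the only one of this group with a Hand1 site (1, beside 2 Foxf1 sites).

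Of the 8 other genes for proteins with a GATA-type zinc finger, 7 had a Foxf1 site, led by Mta1 (10), Zglp1 (9) and Gatad2a (5). Gatad2b, Mta1 and Mta3 each had 1 Hand1 site as well. Among 8 further NuRD subunits, the complex that Zfpm proteins recruit, 7 had a Foxf1 site, led by Mbd3 (8), Chd4 (7) and Rbbp4 (6). Mbd3 and Chd3 had Hand1 sites, 1 and 2. In the endoderm group 4 of 5 had a Foxf1 site, with 5 at Hnf4a and 3 at Eomes. Eomes, a T-box factor of mesoderm and endoderm, had 6 Hand1 sites, the most of any partner gene. The GATA and Zfpm genes, at 5 of 8 and 1 of 8, lay below the share of the 41 partner genes in both lists, a difference that was not tested.

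**Figure D4:**
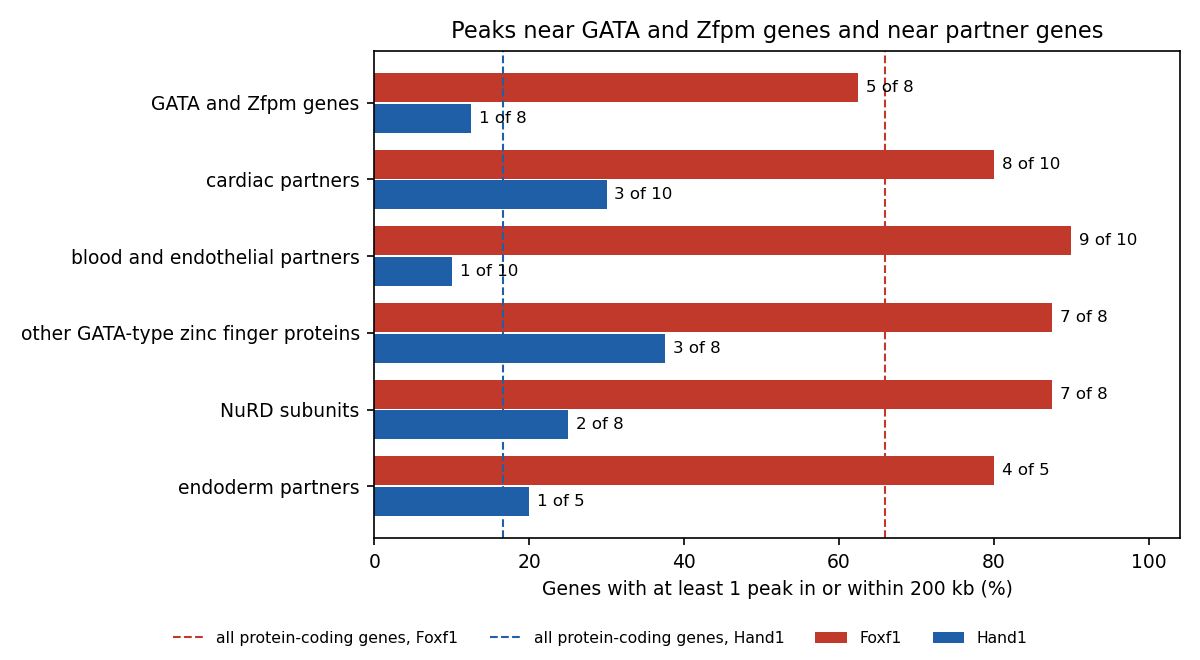
Percent of genes with at least 1 Foxf1 (red) or Hand1 (blue) peak in the gene or within 200 kb, for the 8 GATA and Zfpm genes and 5 groups of partner genes, with the counts beside the bars. Dashed lines are the shares of all protein-coding genes, 65.9% for Foxf1 and 16.6% for Hand1.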

How the data were processed

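Peak lists of 2 of the 5 samples were used, 1 for Hand1-HA and 1 for Foxf1-HA. The submitters' processing notes name build mm10 and Trim Galore 0.6.6, Bowtie2 2.3.4.3, SAMtools 1.9, deepTools 3.5.0 and MACS2 2.2.7.1; the options, the control and any pooling are not given in the sources used here. The deposited columns are a fold (a linear ratio over the caller's background), the summit's −log10 p-value, its −log10 q-value, and a score. The deposited score equals 10 times the −log10 p-value without decimals. Each line was treated as 1 peak, and coordinates are written 1-based.

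Gene positions came from RefSeq's table for GRCm38.p6, the same assembly as mm10; all 8 members and all 41 partner genes matched; 1 gene first listed in the endoderm group is not reported here. Distances run from summit to gene. Sequencing depth is unknown. Fragments at a summit (k) and control level (λ) were solved with SciPy 1.17.1 from the fold, taken as (k + 1)/(λ + 1), and the p-value, taken as the upper Poisson tail beyond k for mean λ, with k whole and the higher λ taken; this gave a solution for 1134 Hand1 and 5691 Foxf1 peaks. A high control level was at least 5 times the list's lowest. Site assignment and this solution were tested on simulated data. No test was possible with 1 list per factor; counts are set beside the same counts over all protein-coding genes. All 8 members are named, with their nearest and strongest sites, the genes nearest to their sites and, per partner group, the genes with most sites and those in both lists. Members, groups and alternatives were chosen with earlier results of these data known. The second Foxf1 library and both inputs were not analysed here.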

Additional observations from a re-analysis of the deposited data

How the results depend on the processing

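The 8 counts and medians were recomputed under 68 alternatives; 48 stayed within 1.5 times the value given and 20 did not. The counts of genes with a site in both lists and of Foxf1 sites overlapping a Hand1 peak were 0 in each alternative run, including 50% coverage and summits within 250 bp. The alternatives narrowed the window, removed peaks or changed the overlap rule. The nearest Hand1 summit to a Foxf1 site of the set was 561 kb away. These counts could therefore not rise above 0. They are among the 48, and they do not show stability. The 24 Foxf1 sites became 9 within 50 kb, 4 within 10 kb, 4 where the member had to be the nearest protein-coding gene, 15 at a −log10 q-value of at least 15, and 3 with lists of equal length. The 5 genes with a Foxf1 site became 3 within 10 kb and 2 with lists of equal length, where the median fold of the remaining sites was 11.5 in place of 7.37; fewer peaks enter by construction. The 1 Hand1 site, and with it the 1 gene, became 0 within 100 kb, 50 kb or 10 kb, with the nearest protein-coding gene, and at a −log10 q-value of at least 10 or 15. A −log10 q-value of at least 10 removes no Foxf1 peak, and the alternatives without a high control level and with lines of 1 region counted once removed no site. Lists of equal length shortened only the Foxf1 list, so the Hand1 values could not change there. The values left unchanged for these reasons are also among the 48 and do not show stability. The median Hand1 fold has no value where no site is left. No paired analysis was possible because each factor had a single list, and for the same reason no replicate was left out.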

Other observations

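The deposited peak names carry running numbers in coordinate order, and most numbers are not in the lists: those present make up 3.58% of the numbers up to 156892 in the Foxf1 list. Between the first and the last Foxf1 site of a gene, counted with both, 6 of 31 numbers were listed at Gata2 (19.4%), 7 of 54 at Gata5 (13.0%) and 9 of 105 at Zfpm1 (8.57%). These spans begin and end at a listed peak, which raises the share. Among all protein-coding genes, 735 others had at least as many Foxf1 sites as Zfpm1, 166 of them on chromosome 8 like Zfpm1. Zfpm1 has no Hand1 site, so the Hand1 list did not narrow this count. The 5 with most sites over both lists were Zfp398, Zfp786, Pdia4, Gm40363 and Gm36327, all on chromosome 6, with 28 to 31 Foxf1 and 17 to 18 Hand1 sites.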
